A study of Mus musculus with 8 samples.

Results

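The cells described here were picked from single-cell RNA-seq of the embryonic mouse forelimb by the transcripts they held. In the sorted distal library of embryonic day 16.5 (E16.5), a cell was a member if it had at least 1 unique molecular identifier (UMI, the tag that marks 1 captured mRNA molecule) of at least 3 of *Foxq1*, *Wfdc2*, *Grin2a*, *Nefm*, *Sphkap* and *Fhod3*. Of the 9061 cell barcodes of the library, 8447 had at least 3000 UMIs and at most 10% mitochondrial UMIs. Of these, 381 were members, which is 4.51% (95% exact binomial interval 4.08 to 4.97), and the 8066 others were the cells they were compared with. The whole series held 53085 cells after the same filter. The working name of this population was a *Foxq1*, *Grin2a* and *Nefm* distal mesenchyme, but the data went against that name, as described below, and the cells are called rule cells here.

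The study followed cells that had switched on *Hic1*, a transcriptional repressor that marks mesenchymal progenitors, in 6 sorted libraries from E11.5 to E16.5 and 2 whole limb libraries of E11.5. Embryos of the sorted libraries were Hic1CreERT2/CreERT2;Rosa26LSLtdTomato/tdTomato on C57BL/6J, so that tamoxifen gavaged to the dam at embryonic day 10 (7.5 mg) turned on the fluorescent protein tdTomato in cells with *Hic1* promoter activity and in all their later descendants. Both E16.5 libraries carried this genotype and dose. The 2 whole limb libraries had the same dose and day of tamoxifen, and the study names their limbs Hic1CreERT2; R26tdTomato. The distal library came from the distal zeugopod and the autopod, and the proximal one from the distal stylopod, the proximal zeugopod and the elbow. Forelimbs of several embryos were pooled, tdTomato-positive cells were sorted, and CD31-positive and CD45-positive cells were gated out, so the label marks a lineage and not one cell type. Both *Hic1* alleles carried CreERT2. Each group compared here was 1 library. No difference therefore has a replicate check, no p-value is given, and all intervals are exact 95% intervals. Beside a count of 0, the share it allows is 3 counts of the total. Both cover counting error only.

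The 6 genes of the rule belong to different kinds of protein. *Foxq1* encodes a forkhead transcription factor, *Wfdc2* a secreted protein with WFDC domains, and *Grin2a* a subunit of the NMDA-type glutamate receptor. *Nefm* encodes the medium chain of neurofilaments, the intermediate filaments of neurons, *Sphkap* an anchoring protein for protein kinase A, and *Fhod3* a formin that assembles actin. Limb mesenchyme at this stage forms the dermis, the fascia, the tendons, the cartilage and the coverings of nerve and muscle. In the mm10 (GRCm38) build, *Foxq1* lies at chr13:31556134-31560976, *Wfdc2* at chr2:164562413-164568510, *Grin2a* at chr16:9567898-9995560, *Nefm* at chr14:68082590-68124846 and *Sphkap* at chr1:83254139-83408200.

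The rule used these levels, which are given as a description. *Nefm* had a UMI in 306 of the 381 rule cells, *Fhod3* in 289 and *Wfdc2* in 288. *Sphkap* was detected in 134, *Grin2a* in 131 and *Foxq1* in 71, so that most rule cells lacked a UMI of each of these. In UMIs summed over cells and scaled to a total of 1000000 (CPM), *Nefm* was at 238 in rule cells and 57.1 in the other cells, *Wfdc2* at 125 and 14.2, and *Fhod3* at 66.6 and 9.43. *Grin2a* was at 36.5 and 4.46 CPM, *Sphkap* at 33.9 and 2.80, and *Foxq1* at 17.7 and 3.04.

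Many of the detections rested on a single molecule. Rule cells held 1219 gene detections, of which 489 (40.1%) were 1 UMI. This share was 22.5% for *Nefm*, 42.3% for *Foxq1*, 43.5% for *Grin2a*, 45.5% for *Wfdc2* and 47.8% for *Sphkap* and *Fhod3*. In 25 rule cells every detected rule gene was at 1 UMI, and in 106 at least 3 of the genes were at 2 or more. Where present in a rule cell, *Nefm* had a median of 4 UMIs and a highest count of 55, and *Wfdc2* a median of 2 and a highest count of 65.

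No gap marked the threshold. The filtered cells numbered 4567 with none of the 6 genes, 2629 with 1, 870 with 2, 314 with 3, 58 with 4, 9 with 5 and 0 with all 6, which allows a share of up to 0.0355%. Cells just inside, with 3 genes, had a median of 9 UMIs of the 6 genes and 425 CPM, and cells just outside, with 2 genes, a median of 4 UMIs and 228 CPM. The median depth was also higher along this series, from 16561 UMIs per cell with none of the genes to 18597.5 with 2 and 20840.5 with 3. Rule cells as a whole had a median of 21382 UMIs (range 4774 to 75396) and 4607 genes, against 17096 UMIs and 4067 genes in the other cells, while the median mitochondrial share was 2.20% and 2.22%. When every cell was thinned to 3000 UMIs drawn at random, 17 cells (0.201%) still met the rule.

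At 3000 UMIs per cell, *Nefm* was found in 38.1% of rule cells and 9.29% of other cells, *Wfdc2* in 25.2% and 3.62%, *Fhod3* in 20.7% and 2.67%, *Grin2a* in 8.14% and 1.23%, *Sphkap* in 7.87% and 0.843%, and *Foxq1* in 5.77% and 1.10%. As a background level, 905 cells of dermal fibroblast-like clusters (median 15068 UMIs before thinning) had *Nefm* in 1.10%, *Wfdc2* in 0.442%, *Fhod3* in 1.22%, *Grin2a* in 0%, which allows up to 0.331%, *Sphkap* in 0.331% and *Foxq1* in 1.22%. The shares in rule cells follow from the rule, so nothing is read from their distance to this level. For *Foxq1*, the other cells and the dermal fibroblast-like cells were at about the same share.

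To read each gene where its own count had not chosen the cells, it was left out of the rule and measured in cells with at least 3 of the other 5 genes. *Wfdc2*, *Nefm* and *Fhod3* were then still higher in the chosen cells. *Nefm* was at 171 CPM in 137 such cells and 65.1 CPM in the rest, and its share at 3000 UMIs was 24.1% (17.2 to 32.1) against 10.4%. *Wfdc2* was at 69.0 and 19.2 CPM (157 cells, 14.01% against 4.41% at 3000 UMIs), and *Fhod3* at 32.9 and 12.2 CPM (156 cells, 8.97% against 3.38%). *Grin2a* was at 11.2 and 6.04 CPM and *Sphkap* at 9.74 and 4.33 CPM, where the intervals of their shares at 3000 UMIs (1.44 to 5.87% and 0.782 to 4.56%) took in the shares of the rest (1.48% and 1.13%). *Foxq1* was at 3.90 CPM in 324 such cells and 3.87 CPM in the rest, so the other 5 genes did not pick out cells with more of it.

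*Foxq1* and *Grin2a*, both in the working name, were rarely found in 1 cell. Of 336 cells with a *Foxq1* UMI, 7 also had *Grin2a*, which is 2.08% (0.842 to 4.25), against 5.78% (5.28 to 6.31) of cells without *Foxq1*. Of the 381 rule cells, 3 had both. *Nefm* was found in 18.2% (14.2 to 22.7) of *Foxq1* cells and 23.6% (22.7 to 24.6) of the others. *Foxq1* went instead with *Sphkap*, *Fhod3* and *Wfdc2*. *Sphkap* was detected in 10.1% (7.11 to 13.9) of *Foxq1* cells and 4.12% of the rest, and *Fhod3* in 22.6% (18.3 to 27.5) and 12.6%. *Wfdc2* was detected in 22.0% of *Foxq1* cells and 15.5% of the rest. At 3000 UMIs the shares were 4.50% (5 cells with both) and 1.12% for *Sphkap*, 9.01% and 3.41% for *Fhod3*, and 18.0% and 4.41% for *Wfdc2*.

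In most other pairs, 1 gene was more frequent in cells with the other than in cells without it at full depth. *Sphkap* was detected in 8.44% (7.25 to 9.76) of *Nefm* cells and 3.11% of cells without *Nefm*, and in 8.73% of *Wfdc2* cells and 3.54% of the rest. *Fhod3* was found in 28.0% of *Sphkap* cells against 12.4%, and in 26.7% of *Grin2a* cells against 12.2%. *Nefm* was found in 38.4% of *Grin2a* cells against 22.5% and in 34.2% of *Wfdc2* cells against 21.4%. At 3000 UMIs, these 6 pairs kept their direction. *Sphkap* was then in 2.24% against 1.03% by *Nefm* and in 3.87% against 1.03% by *Wfdc2*, *Fhod3* in 10.2% against 3.40% by *Sphkap* and in 8.46% against 3.40% by *Grin2a*, and *Nefm* in 17.7% against 10.5% by *Grin2a* and in 15.7% against 10.3% by *Wfdc2*. For *Grin2a* and *Sphkap* no difference was detectable, with *Sphkap* in 5.46% (3.60 to 7.90) of *Grin2a* cells and 4.29% of the rest, and at 3000 UMIs no cell had both. *Grin2a* was in 7.98% (6.58 to 9.56) of *Wfdc2* cells against 5.20%, but at 3000 UMIs in 1.80% against 1.53%.

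**Figure D1:**
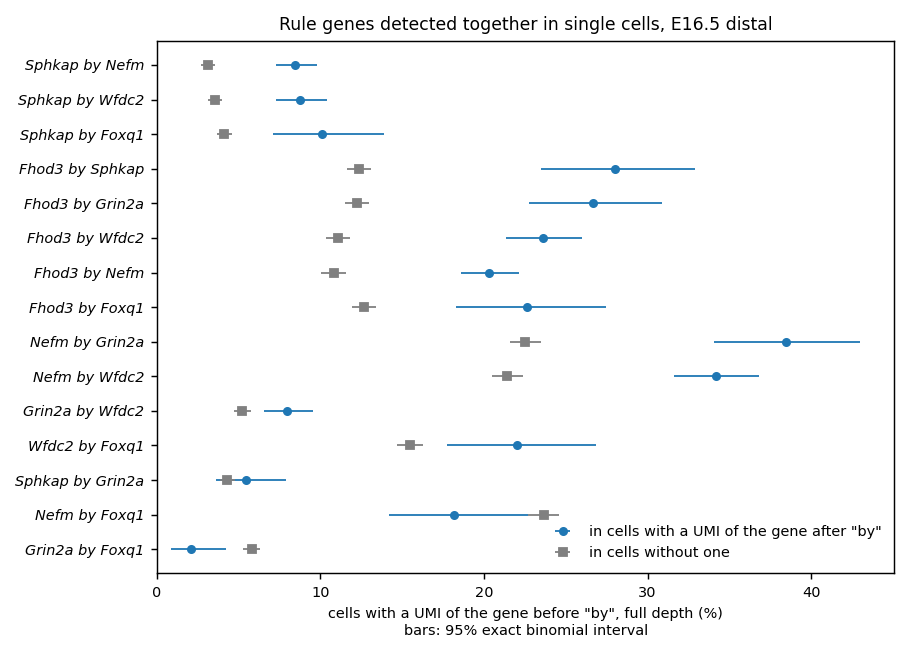
For each of the 15 pairs of rule genes, the percentage of cells with a UMI of the gene named before "by" (x axis, full depth), in cells with a UMI of the gene named after "by" (circles) and in cells without one (squares), with exact 95% binomial intervals. The 2 pairs at the bottom, *Nefm* and *Grin2a* by *Foxq1*, are those where the circle lies left of the square.

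The rule cells were made up of 29 different combinations of the 6 genes, and 19 of the 20 possible triples were seen. The commonest was *Wfdc2*, *Nefm* and *Fhod3* (95 cells, 24.9%), followed by *Grin2a*, *Nefm* and *Fhod3* (39 cells, 10.2%) and *Wfdc2*, *Nefm* and *Sphkap* (29 cells, 7.61%). The triple of the working name, *Foxq1*, *Grin2a* and *Nefm*, occurred in 1 cell. No combination made up most of the rule cells.

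The filtered cells were clustered without the 6 rule genes, which gave 21 clusters. Clusters are called by their 2 leading genes, with a cell type added in 9 where at least 5 of that type's 10 markers were raised and no other type had more markers among the 10 leading genes. In 2 of these 9, the mitotic-like *Hist1h1b Hist1h2ap* cluster and the dermal fibroblast-like *Sox2 Hes5* cluster of 21 cells, none of those markers was among the 10 leading genes. Rule cells did not form a cluster of their own. Of the 21 clusters, 5 held 338 of them (88.7%). The largest part, 164 cells (43.0%), lay in the *Dkk2 Igf1* cluster, where they were 22.4% (19.4 to 25.6) of 733 cells. The *Btc Inhba* cluster held 56 (11.7% of 477 cells), the *Adgrb3 Foxf2* cluster 45 (30.4% of 148 cells, 23.1 to 38.5), the mitotic-like *Plk1 Ckap2l* cluster 41 (7.47% of 549 cells) and the fibroblast-like *Spink6 Anxa8* cluster 32 (6.87% of 466 cells).

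Other named cell types were nearly free of rule cells. The dermal fibroblast-like *Col7a1 Sp5* cluster held 5 among 884 cells, the tenocyte-like *Cma1 Cpa3* cluster 4 among 494 and the chondrocyte-like *Matn1 Col2a1* cluster 3 among 443. The pericyte-like *Acta2 Rgs5* cluster had 0 of 199 cells (which allows up to 1.51%) and the epithelial-like *Krt1 Calm4* cluster 0 of 68 (up to 4.41%). Clusters without rule cells numbered 5, with median depths from 11739 UMIs (*Sox2 Hes5*) to 29687.5 UMIs (epithelial-like).

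The rule genes were spread differently over the clusters, although *Foxq1*, *Wfdc2*, *Sphkap* and *Fhod3* all had their highest share in the *Adgrb3 Foxf2* cluster, *Fhod3* by a margin within counting error. At 3000 UMIs per cell, *Foxq1* was found in 33.1% of *Adgrb3 Foxf2* cells and in 5.02% of the *Tbx3 Kif26b* cluster (279 cells, 2 rule cells), in 4.76% of the 21 cells of the *Sox2 Hes5* cluster, and in at most 1.68% of each of the other clusters. *Grin2a* was found in 8.87% of *Dkk2 Igf1* cells, but in 0.676% of *Adgrb3 Foxf2* cells. *Nefm* was spread over more clusters. It reached 31.2% in the *Mgat4c Aard* cluster (417 cells, 7 rule cells) and 27.0% in the *Snhg11 Fgfbp1* cluster (677 cells, 9 rule cells), the same share as in the *Dkk2 Igf1* cluster, so a high *Nefm* share alone did not make a cluster rich in rule cells. *Fhod3* was at 12.8% in both the *Btc Inhba* and the *Adgrb3 Foxf2* clusters and at 8.87% in the *Dkk2 Igf1* cluster. *Wfdc2* stood at 35.8% in the *Adgrb3 Foxf2* cluster and at 8.59% in the *Dkk2 Igf1* cluster, and *Sphkap* at 9.46% and 4.23%.

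**Figure D2:**
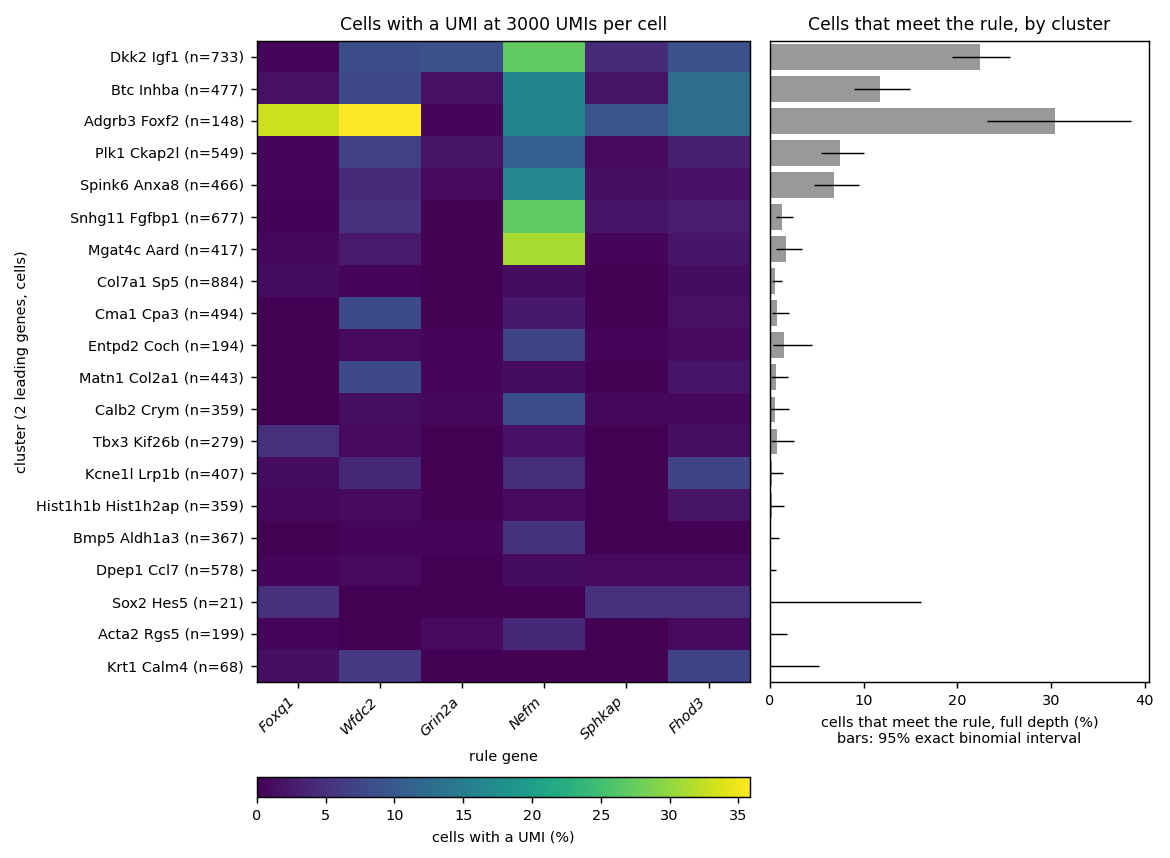
Left, percentage of cells with a UMI of each of the 6 rule genes at 3000 UMIs per cell (colour) in 20 of the 21 clusters of the E16.5 distal library (rows, with 2 leading genes and the number of cells). Right, percentage of each cluster that met the rule at full depth, with exact 95% binomial intervals, highest at 30.4% in the small *Adgrb3 Foxf2* cluster and 22.4% in the *Dkk2 Igf1* cluster.

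The rule cells of these clusters differed in which genes met the rule. In the *Dkk2 Igf1* cluster 138 of 164 rule cells had *Nefm*, 131 *Fhod3*, 111 *Wfdc2*, 97 *Grin2a*, 49 *Sphkap* and 8 *Foxq1*. In the *Adgrb3 Foxf2* cluster 39 of 45 had *Foxq1*, 39 *Wfdc2*, 28 *Fhod3*, 22 *Nefm*, 16 *Sphkap* and 2 *Grin2a*. *Foxq1* was at 149.5 CPM (122 to 182) in the second set and 2.53 CPM (1.16 to 4.80) in the first. *Grin2a* was at 7.33 CPM (2.38 to 17.1) and 69.7 CPM (61.3 to 78.9). The rule itself can set its genes against each other in the cells it chose, so these levels are a description. The clusters were made without the rule genes. Among all their cells at full depth, *Foxq1* was found in 63.5% of the *Adgrb3 Foxf2* cluster and 2.59% of the *Dkk2 Igf1* cluster. *Grin2a* had the opposite order, with 2.03% and 29.5%. In the *Btc Inhba* cluster 48 of 56 rule cells had *Fhod3*, 45 *Wfdc2*, 44 *Nefm* and 4 *Grin2a*, and the triple of *Wfdc2*, *Nefm* and *Fhod3* alone made up 44.6% of them.

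Of 8332 genes with at least 10 CPM in the higher group, 91 (1.09%) were at least 2-fold higher in rule cells, by the ratio of CPM + 1, and 175 (2.10%) at least 2-fold lower. The median log2 ratio over all genes tested was -0.01. The 20 named genes that were higher were chosen for their size in this same contrast, so their folds are a description. They included secreted Wnt modulators, growth factors, a second neurofilament gene, a proteoglycan and ion transport proteins.

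Among cytoskeletal and excitability genes, *Nefl*, the light chain of neurofilaments, was at 136 CPM in rule cells and 34.9 CPM in other cells, which is 3.88-fold higher (3.65 to 4.13). *Nefl* (chr14:68083863-68089095) lies within the annotated span of *Nefm* on the opposite strand and shares an exon stretch with it. The strand setting of the authors' counting was not given in the sources used here, so reads of the overlap cannot be assigned with certainty. *Kcnma1*, the large-conductance potassium channel, was at 37.2 and 12.01 CPM (3.09-fold), and *Fxyd7*, a regulator of the sodium pump, at 37.2 and 11.5 CPM (3.24-fold). *Slc26a7*, an anion transporter, was at 154 and 43.5 CPM (3.55-fold).

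Other named genes encode secreted or surface signalling proteins. *Dkk2*, a secreted modulator of Wnt signalling, was at 333 CPM in rule cells and 91.4 CPM in other cells (3.64-fold, 3.50 to 3.79). The secreted frizzled-related *Sfrp2* was at 322 and 102 CPM (3.15-fold) and *Sfrp1* at 113 and 39.2 CPM (2.88-fold), while the ligand *Wnt2* was at 33.7 and 12.3 CPM (2.75-fold). *Igf1*, insulin-like growth factor 1, was at 774 and 288 CPM (2.69-fold, 2.62 to 2.76). *Gas6*, a ligand of TAM receptor kinases, was at 199 and 71.4 CPM (2.79-fold), and *C1qtnf3*, a secreted C1q and TNF family protein, at 433 and 116 CPM (3.72-fold). A pair of receptors was in the set. *Tek*, the angiopoietin receptor, was at 30.6 and 8.53 CPM (3.59-fold), and *Ptprz1*, a receptor tyrosine phosphatase, at 43.4 and 13.99 CPM (3.10-fold).

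The gene with the largest ratio was *Epyc*, a small leucine-rich proteoglycan known from cartilage, at 45.8 and 8.34 CPM (5.49-fold, 4.90 to 6.15). It was found in 93 of the 381 rule cells. The transcription regulators *Gsc*, the homeobox gene goosecoid, and *Tox3*, an HMG-box gene, were at 41.1 and 12.6 CPM (3.26-fold) and at 61.3 and 21.9 CPM (2.80-fold). The small GTPase gene *Rab32* (3.23-fold), *Fam198b* (3.01-fold), the arylsulfatase gene *Arsi* (2.86-fold) and *Sbspon* (2.85-fold) completed the 20.

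**Figure D3:**
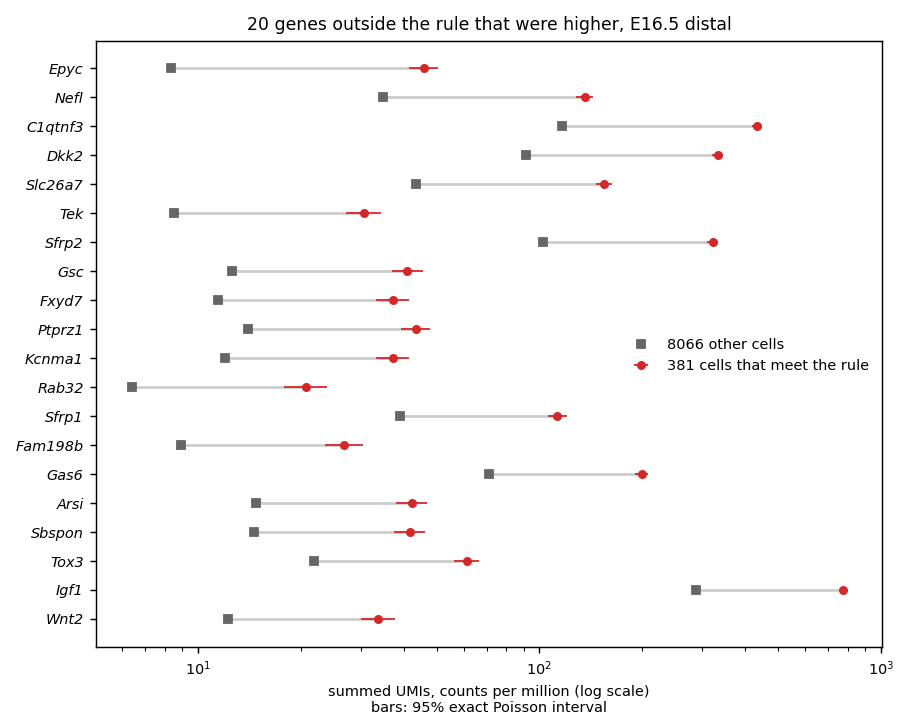
CPM of summed UMIs (x axis, log scale) of the 20 named genes in the 381 rule cells (circles, with exact 95% Poisson intervals) and the 8066 other cells (squares) of the E16.5 distal library. All circles lie right of their squares, from *Epyc* at the top (45.8 against 8.34 CPM) to *Wnt2* at the bottom (33.7 against 12.3 CPM).

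The 20 named genes were also read by the number of rule genes. They were chosen for being high in cells with 3 or more. This partly fixes the rise along the count, above all the step from 2 to 3. Median depth was also higher along the count up to 4 rule genes. So was the share of cells in their leading cluster, with 28.5% for at least 2, 43.0% for at least 3 and 58.2% for at least 4. The steps are therefore a description. All 20 were higher in cells with 1 rule gene than with 0, with 2 than with 1 and with 3 than with 2, and 15 were higher with 4 than with 3. *Dkk2* was at 53.1, 113, 202, 302 and 466 CPM in cells with 0, 1, 2, 3 and 4 rule genes, and *Epyc* at 6.25, 9.05, 15.7, 42.3 and 65.7 CPM. *Nefl* went from 5.24 CPM in cells with none to 62.9 with 1 and 137 with 3, and was at 123 CPM in the 58 cells with 4. In the 9 cells with 5 rule genes, 12 of the 20 were higher than with 4, while *Dkk2* was at 389.6 CPM and *Epyc* at 18.3 CPM (4 UMIs). Up to 4 rule genes, for *Epyc* the widest of these steps was that from 2 to 3 rule genes, and for *Nefl* that from 0 to 1.

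The 12 named genes that were lower were led by keratins. *Krt1*, a keratin of the upper epidermis, was at 6.23 CPM in rule cells and 236 CPM in other cells (37.9-fold lower, 29.2 to 50.2), *Krt14*, a keratin of basal cells, at 1.45 and 54.4 CPM, and *Calm4* at 1.22 and 54.1 CPM. *Ly6d*, *BC100530*, *Krt5*, *Lor*, *Stfa3*, *Sfn*, *Stfa1*, *Krt15* and *Perp* were the others, at 18.1-fold to 52.7-fold lower. When cells with at least 2 rule genes were taken instead, 3 of the 12 (*Krt14*, *Krt5* and *Krt15*) were still 2-fold lower, and the log2 ratio was -0.82 in place of -5.04 for *Krt1* and -0.38 in place of -3.72 for *Perp*. On sums thinned to 3000 UMIs all 12 stayed 2-fold lower, with -3.04 for *Krt1* and -1.94 for *Perp*. None of the 68 epithelial-like cells met the rule. With epithelial-like and cycling clusters left out of the other cells, 1 of the 12 was still 2-fold lower and all 20 named higher genes were still 2-fold higher.

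Of the cartilage markers, all 10 of 10 were at least 2-fold lower in rule cells (median log2 ratio -2.10), beside 2.10% of all genes. *Col2a1*, the main cartilage collagen, was at 63.5 CPM in rule cells and 502 CPM in other cells (7.90-fold lower, 7.27 to 8.59), and *Sox9*, the cartilage transcription factor, at 38.3 and 82.4 CPM. Of the dermal fibroblast markers, 7 of the 9 above 10 CPM were 2-fold lower, among them *Col7a1*, the anchoring fibril collagen (13.6 and 50.01 CPM), *Irx1* (11.2 and 43.1 CPM) and *Twist2* (58.7 and 186 CPM). Of the general fibroblast markers, 2 of 10 were 2-fold higher, *Dpt* (276 and 129 CPM) and *Clec3b* (377 and 168 CPM), and none lower, beside 1.09% of all genes higher. None of the 10 tenocyte markers passed 2-fold in either direction. Among joint markers *Sfrp2* was higher and *Erg* lower of 7 above 10 CPM, and of 6 pericyte markers *Rgs5* and *Acta2* were lower.

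Several markers of other cell types had no UMI in the rule cells, and others of the same lists were present. The immune genes *Ptprc*, *C1qa*, *C1qb* and *Cd52* had none, nor did the endothelial *Cdh5*, *Sox17*, *Emcn* and *Cldn5*, the Schwann cell *Sox10*, *Foxd3* and *Cdh19*, the myogenic *Myod1*, *Myf5*, *Myog* and *Myh3*, or the neuronal *Snap25* and *Syt1*. The sort had gated out CD45-positive and CD31-positive cells from the whole library. The immune markers summed to 3.34 CPM in rule cells and 5.24 CPM in other cells, and the myogenic markers to 20.5 and 28.8 CPM. The zeros are therefore not read as a trait of the rule cells. Of 10 neuron markers, 4 were above 10 CPM and 2 of these were 2-fold higher, *Nefl* and *Prph*, the gene of the intermediate filament peripherin (26.9 and 12.6 CPM), beside 1.09% of all genes. The summed level of the neuron markers was 344 CPM in rule cells and 207 CPM in other cells, and 209 and 172 CPM without *Nefl*, which overlaps the rule gene *Nefm*. Their part in the results was not tested. Of 10 endothelial markers, 3 were above 10 CPM, with *Tek* higher and *Erg* lower (4.01 and 12.04 CPM), beside 1.09% and 2.10% of all genes. Of the 10 mitotic and the 10 S phase markers, none passed 2-fold in either direction, with summed levels of 714 and 787 CPM and of 464 and 449 CPM.

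Most relatives of the rule genes were within 2-fold or below 10 CPM, to be read beside 1.09% of all genes 2-fold higher and 2.10% lower. In the list of neurofilament and neuronal cytoskeleton genes, 6 of 13 were above 10 CPM and 2 were 2-fold higher, again *Nefl* and *Prph*, while the growth cone gene *Gap43* was at 134 and 106 CPM and the heavy neurofilament gene *Nefh* had 3 UMIs. Of 23 other glutamate receptor genes, 4 were above 10 CPM. The AMPA receptor gene *Gria2* was the one that was 2-fold higher, at 18.2 and 4.84 CPM, and the NMDA receptor gene *Grin2b* was at 15.6 and 14.8 CPM. *Grin1*, the obligatory NMDA receptor subunit, had 1 UMI in all rule cells. None of the 15 protein kinase A and cyclic nucleotide genes above 10 CPM and none of the 11 WFDC and protease inhibitor genes passed 2-fold. Of 15 formin and actin genes, *Acta2* and *Tpm2* were lower and none higher, and of 9 forkhead genes *Foxd1* was lower (5.79 and 13.4 CPM).

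Of 8 ion channel genes above 10 CPM, *Kcnma1* and the potassium channel gene *Kcnd2* (21.3 and 7.54 CPM) were 2-fold higher and the calcium channel gene *Cacna1d* lower (4.34 and 10.7 CPM), beside the same shares of all genes (1.09% and 2.10%). Most genes of the glutamate receptor list, 19 of 23, were below 10 CPM in both groups.

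In the signalling lists both directions occurred, to be read beside 1.09% of all genes 2-fold higher and 2.10% lower. Of 27 Wnt pathway genes above 10 CPM, 4 were 2-fold higher (*Wnt2*, *Sfrp1*, *Sfrp2*, *Dkk2*), all secreted, and 8 were lower, among them the transcriptional effectors *Lef1* (3.34 and 16.3 CPM) and *Tcf7* (2.34 and 10.3 CPM), the inhibitors *Nkd1*, *Nkd2* and *Wif1* (24.6 and 73.1 CPM) and the agonist *Rspo1*. The other cells included the dermal fibroblast-like *Col7a1 Sp5* cluster of 884 cells, with *Rspo1* and *Tcf7* among its leading genes. Within the *Dkk2 Igf1* cluster, *Lef1* was at 0.562 CPM in rule cells and 0.586 CPM in the rest, and *Rspo1* at 1.40 and 1.46 CPM. *Nkd2* was at 0.843 and 4.10 CPM there. These rest on 2, 5 and 3 UMIs in rule cells. How far the lists follow the make-up of the other cells was not tested. Of 29 genes of the FGF, IGF and PDGF list, *Igf1*, *Fgf7* (47.2 and 22.98 CPM) and *Pdgfd* (19.2 and 6.96 CPM), all ligands, were higher, and the receptor gene *Fgfr2* and the FGF-responsive factors *Etv4* and *Etv5* lower. Of 36 BMP and TGF-beta genes, 5 were lower, including *Bmp5* (4.01 and 15.1 CPM), and none higher. Of 25 genes of the hedgehog, retinoic acid and Notch list, the hedgehog receptor gene *Ptch1* (25.4 and 51.9 CPM), *Aldh1a3* and *Cyp26b1* (16.7 and 55.1 CPM) were lower. Of 34 guidance genes, the ephrin receptor gene *Epha7* was higher (77.2 and 35.4 CPM) and *Plxna4*, *Bdnf*, *Gfra1* and *Gfra2* were lower.

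In the matrix lists, most genes stayed within 2-fold, and the counts stand beside 1.09% of all genes higher and 2.10% lower. Of 38 basement membrane and matricellular genes, *Postn* (2414 and 1134 CPM) and the elastin gene *Eln* (605 and 275 CPM) were higher and *Sparcl1* (22.0 and 111 CPM) and *Spon1* lower. Of 31 interstitial collagen and proteoglycan genes, *Aspn* was higher (1140 and 556 CPM) and *Col23a1*, *Col25a1* and *Hapln1* were lower. Of 22 protease genes, *Adamts15* and *Adamts19* were higher, of 14 cadherin genes *Pcdh19* was higher, and of 13 chemokine and cytokine genes 5 were lower, among them *Cxcl14* (50.5 and 167 CPM) and *Ccl2* (17.7 and 70.1 CPM). Of 20 immediate early and stress genes, which tissue dissociation can induce, *Fos* was higher (822 and 373 CPM).

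Position genes gave no single answer, again beside 1.09% of all genes higher and 2.10% lower. Of 9 posterior Hox genes above 10 CPM none passed 2-fold, with the autopod genes *Hoxa13* at 23.03 and 31.7 CPM and *Hoxd13* at 46.7 and 79.7 CPM, and *Hoxa11*, a gene of the zeugopod, at 57.1 and 43.8 CPM. Of 21 genes of the anterior-posterior and dorsoventral list, *Lmx1b*, the dorsal determinant, was higher (19.0 and 8.02 CPM) and 8 were lower, among them *En1* (10.7 and 22.6 CPM), *Tbx3* and 4 Irx genes. *En1* and *Irx1* are also on the list of dermal fibroblast markers, so their levels are not read as position. Of 5 distal limb regulators above 10 CPM, *Lmo1* was higher (46.6 and 22.6 CPM) and *Cyp26b1* lower. Of 19 digit tip and nail mesenchyme genes, *Lmx1b*, *Sfrp2* and *Fgf7* were higher and *Rspo1* and *Bmp5* lower. Of 8 marker genes of other distal mesenchyme, *Dkk2* and *Dmrt2* were higher and *Calb2*, *Ccl2* and *Mia* lower, and of 42 other lineage regulators 8 were lower and none higher. The lineage gene *Hic1* itself was at 20.03 and 28.3 CPM, and tdTomato at 791 and 857 CPM, with a UMI in 83.2% of rule cells and 87.0% of other cells at 3000 UMIs.

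The named genes were not shared evenly by the rule cells. In the 5 clusters with most rule cells, *Gas6* ranged from 155 to 284 CPM and *Nefl* from 70.5 to 209 CPM. *Igf1*, by contrast, was at 1414 CPM (1375 to 1453) in rule cells of the *Dkk2 Igf1* cluster, 143 in those of the *Btc Inhba* cluster and 16.1 CPM (8.05 to 28.9) in those of the *Adgrb3 Foxf2* cluster. *C1qtnf3* was at 545, 754 and 17.6 CPM in the same order, and *Slc26a7* at 158, 135 and 400 CPM. *Epyc* was at 65.2 CPM in the first and 4.40 CPM (3 UMIs) in the third. Set against the other cells of the library, 16 of the 20 were higher in the rule cells of the *Adgrb3 Foxf2* cluster, 12 of them with the interval above, and *Igf1*, *C1qtnf3*, *Epyc* and *Gsc* were lower, the first 2 with the interval below.

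Hox levels of the rule cells also differed by cluster. *Hoxd13* was at 167 CPM (138 to 201) and *Hoxa13* at 64.5 CPM (46.9 to 86.6) in rule cells of the *Adgrb3 Foxf2* cluster, against 20.5 CPM (16.1 to 25.8) and 14.04 CPM (10.4 to 18.5) in those of the *Dkk2 Igf1* cluster. *Hoxa11* had the opposite order, with 19.1 CPM (10.1 to 32.6) and 81.2 CPM (72.1 to 91.1). In the cells of these 2 clusters that missed the rule, *Hoxd13* was at 200.4 and 19.5 CPM, *Hoxa13* at 73.1 and 10.7 CPM and *Hoxa11* at 9.46 and 62.6 CPM. The *Hoxa11* levels lay below the intervals of the rule cells in both clusters.

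Further genes set the rule cells of 1 cluster apart from the other rule cells. In the *Dkk2 Igf1* cluster these were led by *Tac1*, the substance P precursor (101 CPM, against 17.7 in the other rule cells), *Hmox1* (52.8 and 10.3 CPM) and *Tox* (59.3 and 13.3 CPM). In the *Btc Inhba* cluster *Ccl7*, a chemokine (95.6 and 5.64 CPM), *Rgs16* (64.6 and 3.85 CPM) and the potassium channel gene *Kcnk2* (70.5 and 6.41 CPM) led, with *Gria2* at 52.8 and 12.96 CPM. In the *Adgrb3 Foxf2* cluster *Foxf2*, a forkhead factor (64.5 and 2.77 CPM), *Npnt*, an integrin ligand (290 and 17.6 CPM), and *Lrp1b* (103 and 7.34 CPM) led, and *Msx1*, a homeobox gene of distal limb, followed after *Adgrb3* (57.2 and 4.70 CPM). In the *Spink6 Anxa8* cluster *Spink6* (94.7 and 2.99 CPM) led, followed by the fibroblast genes *Ly6a* (295 and 16.5 CPM) and *Pi16* (187 and 11.7 CPM). In the mitotic-like cluster the leading genes were those of division, such as *Top2a* (1024 and 20.8 CPM). Clustering used these genes, so the values describe the clusters and are no test.

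**Figure D4:**
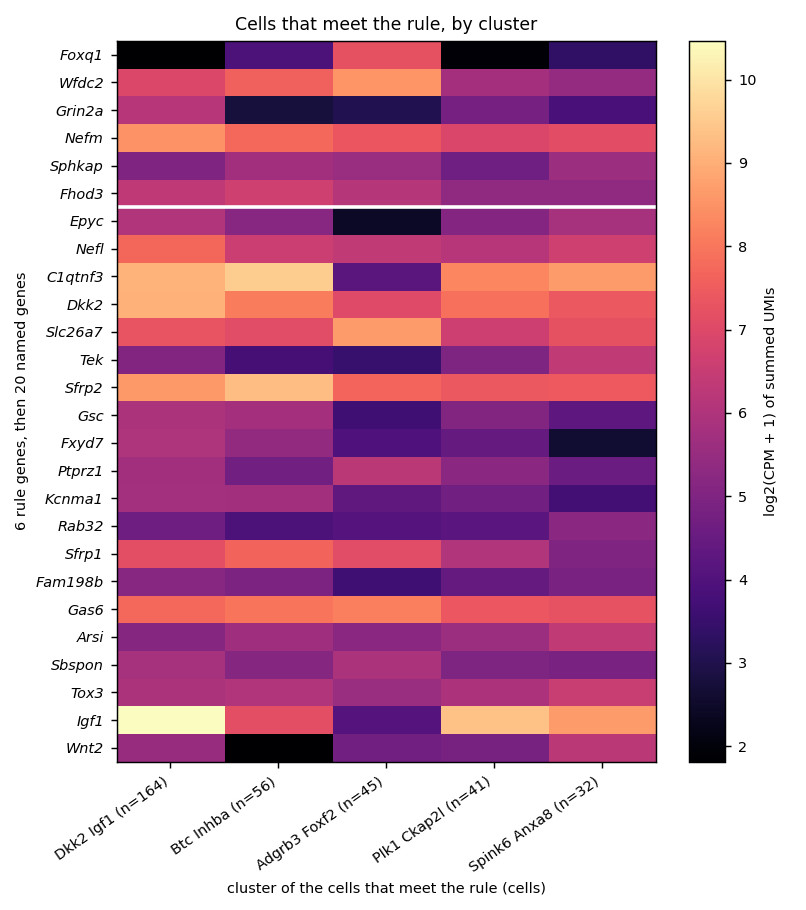
Level of the 6 rule genes (above the white line) and the 20 named genes, as log2(CPM + 1) of UMIs summed over the rule cells of each of the 5 clusters that held most of them (columns, with the number of rule cells). *Foxq1* is high in the *Adgrb3 Foxf2* column (149.5 CPM) and low in the *Dkk2 Igf1* column (2.53 CPM), and *Grin2a*, *Igf1* and *C1qtnf3* show the opposite. The rule genes were used to choose these cells, so their levels are a description.

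Much of the contrast with the other cells followed the clusters. When rule cells were compared with the other cells of the 5 clusters that held most of them, 6 of the 20 named genes stayed 2-fold higher and all 20 stayed above a ratio of 1, and 24 genes in all (0.290%) were 2-fold higher and 121 (1.46%) lower. Within the *Dkk2 Igf1* cluster alone, 3 of the 20 were 2-fold higher among 33 genes (0.413%) and 38 (0.476%) were lower. These were *Fxyd7* (61.8 and 22.4 CPM, 2.76-fold, 2.29 to 3.34), *Epyc* (65.2 and 24.4 CPM, 2.67-fold, 2.22 to 3.20) and *Kcnma1* (52.8 and 22.8 CPM, 2.32-fold, 1.90 to 2.82). *Nefl* was 1.85-fold higher (1.68 to 2.03), and *Igf1* (1.13-fold), *Dkk2* (1.23-fold) and *C1qtnf3* (1.08-fold) were close to the cells of the cluster that missed the rule. Without the *Dkk2 Igf1* cluster on either side, 18 of the 20 stayed 2-fold higher, and 78 genes in all were 2-fold higher and 150 lower. Rule cells were deeper than the rest of each cluster, with a median of 20444 against 17467 UMIs in the *Dkk2 Igf1* cluster. At 3000 UMIs per cell in that cluster, *Fxyd7* was found in 17.1% of rule cells and 4.22% of the rest, *Epyc* in 13.4% and 3.87%, *Kcnma1* in 13.4% and 6.50%, and *Nefl* in 37.8% and 20.04%.

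Mixed barcodes were looked for through sex-linked transcripts, since embryos of both sexes were pooled. A UMI of *Xist* and one of a Y-linked gene were both present in 517 cells, of which 36 (6.96%, 4.92 to 9.51) were rule cells, at a median of 25042 UMIs. The share of rule cells was 4.43% (203 of 4586) in cells with *Xist* alone and 4.40% (129 of 2934) in cells with Y-linked UMIs alone. All 20 named genes were 2-fold higher in each of these 2 sets taken alone, where 107 (1.28%) and 119 (1.42%) genes were 2-fold higher and 190 (2.27%) and 217 (2.59%) lower in all. The 20 were chosen in a contrast that already held the cells of both sets, so their folds there are a description and no check. Mixed barcodes from embryos of the same sex cannot be seen in this way and stay in both sets. Cells with both kinds made up 9.45% of rule cells and 5.96% of other cells. The distal library shared 30 barcodes (0.355% of its cells) with the proximal one and at most 18 with any other library.

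At full depth, 129 of 8381 cells (1.54%) of the E14.5 library and 68 of 11109 cells (0.612%) of the E16.5 proximal library met the rule, and 2 to 4 cells in each of the libraries of E11.5 to E13.5. The median depth was 14333 UMIs at E14.5, 18473 in the proximal library, 17275 in the distal library and between 6788 and 8992 in the earlier ones. At 3000 UMIs, 0.201% (0.117 to 0.322) of distal cells met the rule, against 0.00900% (1 cell, up to 0.0501) of proximal cells and 0.0597% (0.0194 to 0.139) of E14.5 cells. In the sorted libraries of E11.5 and E12.5 1 cell each did (0.0316%, up to 0.176, and 0.0212%, up to 0.118). These intervals and that of E14.5 overlap that of the distal library. In the E13.5 library and the whole limb libraries no cell did, which allows up to 0.0490%, 0.0549% and 0.0528%.

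The share with at least 2 of the 6 genes at 3000 UMIs, which rests on more cells, was 2.69% (2.35 to 3.05) in the distal library, 1.07% (0.864 to 1.32) at E14.5 and 0.360% (0.257 to 0.490) in the proximal library. At E11.5 to E13.5 it lay between 0.0849% and 0.392%. The E16.5 distal and proximal libraries were made with the same version of the kit, v3, and differed in limb segment and in the version of the counting software. For the earlier libraries up to E13.5, stage and kit cannot be told apart.

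All 6 rule genes had a higher share of cells at 3000 UMIs in the distal than in the proximal library of E16.5. They were chosen for cells of the distal library with these data known, so a higher share there was partly set by the choice. The same holds for the shares with at least 2 and at least 3 of them. *Nefm* was found in 10.6% of distal and 3.17% of proximal cells, *Wfdc2* in 4.59% and 2.60%, *Fhod3* in 3.48% and 1.02%, *Grin2a* in 1.54% and 0.783%, *Foxq1* in 1.31% and 0.468%, and *Sphkap* in 1.16% and 0.387%. At E14.5 *Wfdc2* stood at 6.53% and *Grin2a* at 2.57%, above the E16.5 distal library, and the other 4 genes were below it. The E14.5 forelimbs were not divided into segments and were counted with another software version. Stage, segment and software therefore cannot be told apart between these 2 libraries.

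**Figure D5:**
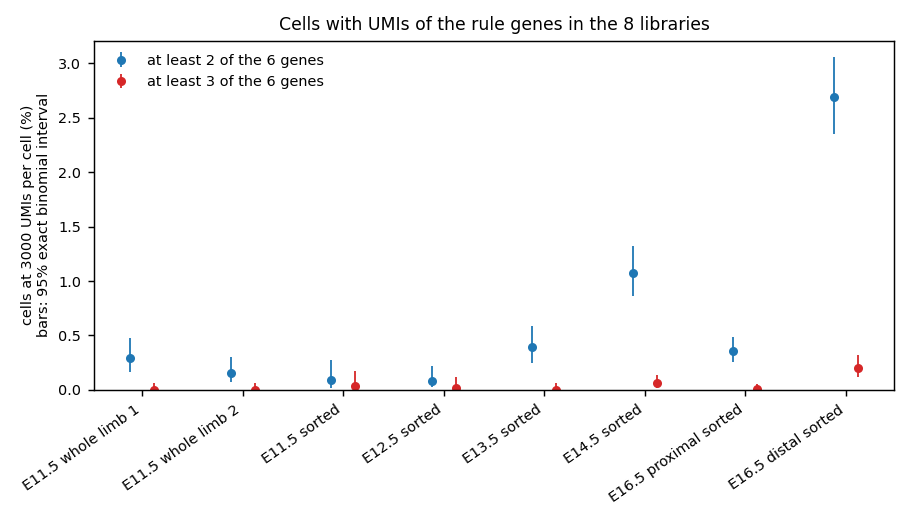
Percentage of cells with a UMI of at least 2 (blue) and at least 3 (red) of the 6 rule genes after thinning every cell to 3000 UMIs (y axis), in the 8 libraries (x axis), with exact 95% binomial intervals. The E16.5 distal library is highest in both, at 2.69% and 0.201%, and kits differ between the libraries up to E13.5 and the later ones. The rule genes were chosen for cells of the distal library.

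The named genes of the distal library were then read in the cells that met the rule elsewhere. In the proximal library 19 of the 20 were higher than in the other proximal cells with an interval above 1, and 11 of the 19 tested were 2-fold higher, beside 1.84% of all genes. All 12 named lower genes were 2-fold lower there, beside 3.67% of all genes. Most of the 12 were leading genes of the epithelial-like cluster of the distal library. With epithelial-like and cycling clusters left out of the other distal cells, 1 of the 12 had stayed 2-fold lower. Epithelial-like cells were not left out of the proximal comparison, so its values for the 12 are a description. Each of these 12 was still at a higher CPM in the proximal cells that met the rule than in the distal rule cells. *Krt1* was at 355 CPM in the former and 1244 CPM in the other proximal cells, against 6.23 and 236 CPM in the distal library. In the proximal library *Nefl* was 4.94-fold higher (3.86 to 6.22), *Slc26a7* 3.81-fold, *Tek* 3.50-fold and *Dkk2* 2.97-fold. At E14.5, 17 of 20 were above a ratio of 1 and 11 had an interval above 1, and 7 of the 16 tested were 2-fold higher, beside 0.740% of all genes (0.470% were 2-fold lower). *C1qtnf3* (5.29-fold) and *Nefl* (4.19-fold) were among these, while *Igf1* was at 0.992-fold (0.918 to 1.07). The joint occurrence of *Foxq1* and *Grin2a* was low in these libraries too, with *Grin2a* in 4.64% (2.34 to 8.15) of *Foxq1* cells and 8.58% of other cells at E14.5, and in 1.49% (0.485 to 3.44) and 3.58% in the proximal library. Some other pairs did not keep their distal direction. *Wfdc2*, which was more frequent in distal *Foxq1* cells, was found in 6.25% (3.91 to 9.40) of *Foxq1* cells and 11.1% of other cells in the proximal library, and *Fhod3* in 5.49% (3.93 to 7.43) of *Grin2a* cells and 7.43% of other cells at E14.5.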

How the data were processed

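Single-cell RNA-seq was made with the 10x Genomics Chromium 3' v2 kit up to E13.5 and the v3 kit for E14.5 and E16.5. The authors aligned and counted the reads with Cell Ranger (6.0.1 for the distal library and 3.0.2 for the other sorted libraries, per the file headers, with no version named for the whole limb libraries) against a modified mm10 genome, and deposited raw UMI counts for 28001 features in filtered barcodes. The study filtered out small epithelial clusters of E16.5 (marked by *Krt1* or *Krt14*), but the deposited matrix of the distal library still holds such cells. The distal library held 160375326 UMIs.

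Cells with at least 3000 UMIs and at most 10% mitochondrial UMIs were kept. Counts were summed over rule cells and over other cells, scaled to CPM and compared as log2 of CPM + 1 for genes with at least 10 CPM in the higher sum, leaving out rule, mitochondrial, haemoglobin and sex-linked genes and transgenes. With 1 library per group no test was run. Intervals are Clopper-Pearson for shares and exact Poisson or conditional binomial for CPM and ratios. Each cell was also thinned to 3000 UMIs. Named genes had at least 20 CPM and at least 1.5-fold in the same direction on thinned sums, and were the first 20 higher and the first 12 lower by log2 ratio, without gene models that lack a symbol. Genes named from a fixed list or as leading genes of a cluster are described as such. Leiden clustering (scanpy 1.11.5, igraph 0.11.9, resolution 1, 2000 variable genes, 50 components, 25 neighbours) left out the rule genes. A cluster was given a cell type where at least 5 of that type's 10 markers were raised (at least 2-fold, in at least 10% of its cells) and no other type had more markers among the leading 10 genes. Scrublet called 0 of the 8447 cells doublets and so did not work here. Cells with its highest 6% of scores, or with transcripts of both sexes, were left out in turn instead. Of the 507 cells with the highest scores, 42 (8.28%, 6.04 to 11.0) were rule cells, and the median depth of the 507 was 28403 UMIs. The rule, the lists and the comparisons were chosen with earlier results of these data known, so no list is independent evidence. Gene positions are from GENCODE on GRCm38. The values of 1 cluster and 1 gene list are not reported here.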

Additional observations from a re-analysis of the deposited data

Results flagged for a closer look

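Some named genes had the opposite direction in the cells that met the rule in another library, with intervals that did not overlap. The difference between libraries was not tested in any case. *Epyc*, which was 5.49-fold higher in the rule cells of the E16.5 distal library, had a ratio of 0.187 at E14.5 (2.23 CPM in cells that met the rule and 11.9 CPM in the others, 6 UMIs) and of 0.302 in the E16.5 proximal library (34.5 and 114 CPM).

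Of the 12 named genes that were lower in the distal rule cells, 9 had a ratio above 1 at E14.5, 7 of them with an interval above 1. These 7 had distal ratios of 0.0226 to 0.0551. *Lor* (0.768) and *Krt15* (0.864) were below 1 at E14.5, and *Stfa1* had 0 UMIs in the cells that met the rule there. The E14.5 ratio was 2.67 for *Krt1* (16.8 and 6.27 CPM), 3.38 for *Krt14* (44.7 and 13.2 CPM), 2.88 for *Krt5* (38.4 and 13.3 CPM), 3.13 for *Sfn* (32.0 and 10.2 CPM) and 3.43 for *Perp* (64.0 and 18.7 CPM). It was 5.24 for *Calm4* (interval 1.02 to 16.96, 3 UMIs) and 12.2 for *Stfa3* (1.26 to 61.3, 2 UMIs).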

How the results depend on the processing

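No paired analysis was possible because each group compared is 1 library. The share of rule cells (4.51%) was 14.8% with at least 2 rule genes, 0.793% with at least 4, 0.201% when cells were thinned first, 2.81% without the leading cluster and 22.4% within it. The 91 higher and 175 lower genes became 47 and 95 with at least 2 rule genes, 455 and 975 in the 17 cells that met the rule after thinning, 170 and 395 with no CPM minimum, 37 and 47 with a minimum of 50 CPM, 19 and 84 at 3-fold, and 33 and 38 within the leading cluster. The higher genes numbered 146 with at least 4 rule genes, 170 with epithelial-like and cycling clusters left out of the other cells and 24 against the other cells of the 5 clusters. The count of 170 kept the rule cells of the mitotic-like clusters, so it can include genes of division. Without mitotic clusters on either side, 98 genes were higher and 180 lower. The share of rule cells in their leading cluster (43.0%) was 28.5% with at least 2 and 58.2% with at least 4 rule genes, 58.0% at resolution 0.5, 30.4% at resolution 2, 33.6% with the rule genes kept in clustering and 48.4% without mitotic clusters. The proximal share at 3000 UMIs (0.00900%) was 0.612% at full depth, 0.360% with at least 2 genes and 0 with another thinning. The log2 ratio changed sign for *Fam198b* (-3.45) and *Sbspon* (-0.025) when cells were thinned before the rule, and within the leading cluster for *Sfrp1* (-0.071), *Krt1* (0.028), *Calm4* (0.12) and *Stfa3* (0.015). The cause was not tested. Leaving out mitotic clusters, the cells with the highest doublet scores, cells with transcripts of both sexes, the leading cluster or all others was chosen after seeing the data. No value could be given without called doublets, since none was called.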
